A study of Homo sapiens with 3 samples.

Results

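The genes described here encode proteins of the mitochondrial ribosome. They were the protein-coding genes of the deposited table whose symbol is MRPL or MRPS followed by a number, and 78 of the table's 30923 genes met that rule. MRPL names 49 genes of the large subunit and MRPS names 29 of the small subunit. The rule used names alone and no measured value. RNA was sequenced from QBC-939, a human line from cholangiocarcinoma, a cancer of the bile ducts, whose cells carried a WT genotype per the labels. The 3 groups, of 1 library each, are named by their treatment: oe-miR-182-5p and oe-miR-183-5p, which overexpressed the microRNA named, and the control oe-NC, called NC below. Only the microRNA samples carry "mim" in their titles. No time after treatment is given in the labels, and whether either microRNA was raised was not analysed here. With 1 library per group there was no replicate check, so every difference below is one between libraries, no p-value was computed, and intervals cover counting error only.

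Mitochondria keep their own ribosomes, which translate the few mRNAs of the mitochondrial genome into subunits of the respiratory chain and ATP synthase. The rRNAs are transcribed from mitochondrial DNA, whereas all the ribosomal proteins are encoded in the nucleus, made in the cytosol and imported. Many of these proteins have counterparts in bacterial ribosomes and keep the bacterial number in their name; others are found only in mitochondrial ribosomes.

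The mature microRNAs are printed because their seeds, bases 2 to 8, in capitals, define the sites searched for below. They come from RefSeq (GRCh38.p14), where miR-182-5p lies at chr7:129770447-129770470 and miR-183-5p at chr7:129774967-129774988, both on the minus strand.
miR-182-5p: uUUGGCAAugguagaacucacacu
miR-183-5p: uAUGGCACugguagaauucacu
The seeds differ in their letters and so pair with different sites.

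Library totals were 61709874 counts for miR-182-5p, 67427313 for miR-183-5p and 64516706 for NC, of which genes of the mitochondrial genome took 16.7%, 16.1% and 13.5%. Wherever 3 values of a gene follow each other below, the first is from the miR-182-5p library, the next from miR-183-5p and the last from NC. Defining bile duct epithelial markers were present in the NC library, with an FPKM (fragments scaled to gene length and library size) of 81.6 for KRT19, 171 for EPCAM and 25.4 for SOX9, whereas KRT7 had 1.03. Markers of other cell types were low: the 8 of 11 listed leukocyte, fibroblast, endothelial and hepatocyte markers analysed here had a summed FPKM of 3.76 with miR-182-5p, 2.54 with miR-183-5p and 3.15 with NC, beside 279 to 283 for the 4 bile duct markers. Most of it came from the macrophage marker CD68, with an FPKM of 1.08, 0.615 and 1.47, and the collagen gene COL1A1, with 1.81, 1.14 and 0.952. PTPRC and APOA1 had 0 counts with NC and with miR-183-5p, and ALB had 0 with miR-182-5p. The part of these markers in the results below was not tested.

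All 78 genes were expressed. Their counts ran from 368 to 25523 over genes and libraries, and 0 of 78 had a mean FPKM below 1, the level used as the lower limit for a measured gene. The median FPKM of the large subunit genes was 11.0 with miR-182-5p, 12.3 with miR-183-5p and 13.6 with NC. For small subunit genes the medians were 10.1, 11.2 and 12. The NC library thus had the highest median for both subunits and the miR-182-5p library the lowest.

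MRPL45, whose protein sits at the exit of the peptide tunnel and ties the ribosome to the inner membrane, had the highest FPKM of all members in every library. Its FPKM was 151 with miR-182-5p, 176 with miR-183-5p and 193 with NC. Next in the NC library came the small subunit gene MRPS34 at 75.5 and MRPL12 at 66.3, the gene of the stalk protein that recruits translation factors. MRPS35 of the small subunit had an FPKM of 62.6. At the low end of that library were MRPL46 at 2.88, MRPS18C at 3.37 and MRPL42 at 3.60.

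That order depends on the gene length behind the FPKM. The length implied by each gene's count and FPKM was 1.2 times the union of its annotated exons at the median, and 66 of 78 members lay within 1.1 times of that value. It exceeded the length of the coding transcript 1.86-fold at the median, from 0.554-fold for MRPL41 to 28.1-fold for MRPL42. The longest annotated 3′ UTR of MRPL42 spans 14992 bases. CPM (counts scaled to the library total) per kilobase of coding transcript in the NC library were 232 for MRPL45, 122 for MRPL3, which encodes a core protein with a bacterial counterpart, and 101 for MRPL42. MRPL42 therefore stood at rank 76 of 78 by FPKM and at rank 3 per kilobase of coding transcript, while MRPL45 was at rank 1 by both. The coding transcript used for MRPL42 spans 701 bases, and the union of its exons 16393. How many of its reads lie outside the coding transcript was not tested, so its rank 3 is uncertain. In all, 22 members moved by at least 20 places. Ratios between libraries do not depend on this choice, since a gene's length cancels.

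**Figure D1:**
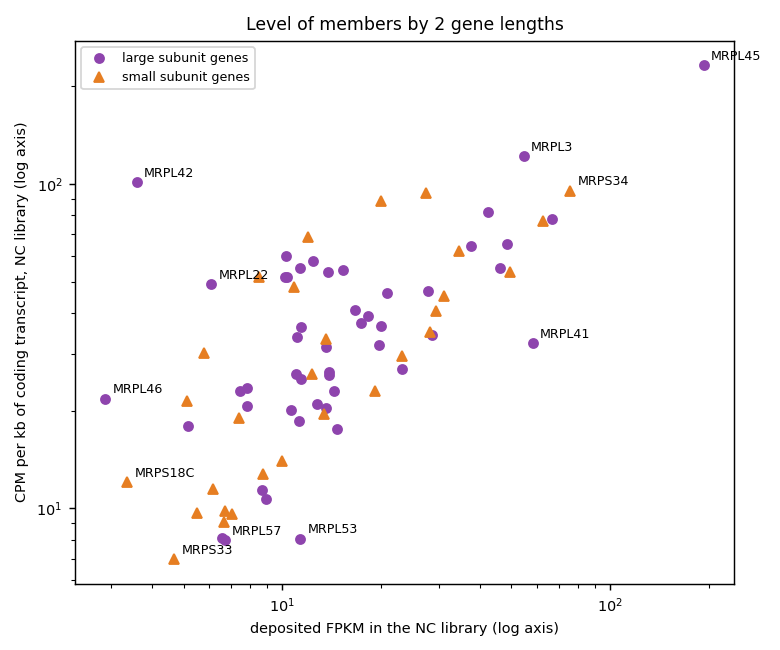
Level of each member in the NC library, as deposited FPKM (x axis, log scale) and as CPM per kilobase of coding transcript (y axis, log scale), with large subunit genes as circles and small subunit genes as triangles. MRPL45 is highest on both axes, and MRPL42 is near the bottom by FPKM (3.60) and near the top per kilobase of coding transcript (101).

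In the miR-182-5p library, most mitochondrial ribosomal protein genes had a lower share of counts than in the NC library. The members together took 0.340% of all counts against 0.425% in NC, a ratio of the summed CPM of 0.789 for the large and 0.816 for the small subunit. The median log2 CPM ratio of the large subunit genes was −0.31, with quartiles of −0.44 and −0.25, and that of the small subunit genes was −0.29, with quartiles of −0.44 and −0.22. The median of all 10581 protein-coding genes with a mean FPKM of at least 1 was −0.05. CPM was below NC for 48 of 49 large and 27 of 29 small subunit genes, against 56.9% of all protein-coding genes. In bulk RNA, less RNA of a gene per cell and fewer cells that express it cannot be told apart.

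At least 1.2-fold lower were 36 of 49 large subunit genes (73.5%) and 19 of 29 small subunit genes (65.5%), where 20.9% of all protein-coding genes were. No member was at least 1.2-fold higher, against 15.8% of protein-coding genes. The 95% counting interval lay wholly below 1 for 45 large and 26 small subunit genes (44.1% of protein-coding genes), and wholly above 1 for 1 member, MRPS25 (31.9% of protein-coding genes). Past 1.5-fold lower there were 4 members, all of the large subunit, where the background was 1.79%. None was 1.5-fold higher (background 3.38%), and none passed 2-fold in either direction.

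These 4 genes were MRPL53, MRPL15, MRPL34 and MRPL12. MRPL53 encodes a protein found only in mitochondrial ribosomes and lies at chr2:74471982-74472687 on the minus strand. It had 368 counts with miR-182-5p, 408 with miR-183-5p and 604 with NC, an FPKM of 7.31, 7.42 and 11.3. Both microRNA libraries were thus below NC and close to each other. The CPM ratio to NC was 0.637 (0.558 to 0.726) for miR-182-5p and 0.646 (0.569 to 0.734) for miR-183-5p. By GENCODE 29, 45.2% of its exon bases are shared with other genes on the same strand. CCDC142, which overlaps it there, had a miR-182-5p ratio of 1.34 (1.23 to 1.47), on the other side of NC.

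MRPL15, a core protein with a bacterial counterpart, had 1195, 1672 and 1914 counts, or an FPKM of 9.21, 11.8 and 13.9. Its ratio was 0.653 (0.607 to 0.702) in the miR-182-5p library. MRPL34, also of a bacterial family, had an FPKM of 7.37 with miR-182-5p, 8.16 with miR-183-5p and 11.0 with NC, and a ratio of 0.660 (0.607 to 0.718). MRPL34 resembled MRPL53 in being low with both microRNAs, whereas the miR-183-5p value of MRPL15 lay nearer to NC.

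The stalk gene MRPL12 (chr17:81703367-81707517, plus strand) had 3285 counts with miR-182-5p, 4645 with miR-183-5p and 5189 with NC. The FPKM was 44.5, 57.7 and 66.3. Its ratio to NC was 0.662 (0.633 to 0.692) for miR-182-5p and 0.857 (0.823 to 0.891) for miR-183-5p. Among the genes of the stalk base the ratio in the miR-182-5p library was 0.793 (0.746 to 0.843) for MRPL10 and 0.862 (0.815 to 0.912) for MRPL11. All 3 stalk genes were below NC in this library, MRPL12 the most; 68.2% of the exon bases of MRPL12 are shared with another gene on the same strand.

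Around the exit of the peptide tunnel, MRPL45 had 18778 counts with miR-182-5p, 23931 with miR-183-5p and 25523 with NC, a ratio of 0.769 (0.755 to 0.784) for miR-182-5p. MRPL23, whose bacterial counterpart lines the tunnel exit, had an FPKM of 7.18, 9.78 and 10.3 in the same order and a ratio of 0.691 (0.648 to 0.737). MRPL22, another tunnel protein, had a ratio of 0.738 (0.694 to 0.785). Without MRPL45 the summed CPM of the large subunit was 1803 with miR-182-5p and 2274 with NC. The sum was thus also lower without the most abundant member.

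The large subunit genes nearest to NC were MRPL52, which encodes a mitochondria-specific protein, and MRPL2, whose protein belongs to the conserved core next to the peptidyl transferase centre. MRPL52 had 1265, 1378 and 1295 counts and a ratio of 1.02 (0.944 to 1.1) for miR-182-5p. MRPL2 had 2052, 2316 and 2148 counts and a ratio of 0.999 (0.940 to 1.06). Both counting intervals include 1. Scaled by TMM or DESeq2 size factors MRPL52 came out below NC, and scaled to nuclear-encoded counts or taken from FPKM plus a pseudocount MRPL2 came out above it. Some members with other known roles lay along the range. MRPL44, which resembles RNase III, had a miR-182-5p ratio of 0.772 (0.731 to 0.816), MRPL58, a peptidyl-tRNA hydrolase that rescues stalled ribosomes, 0.824 (0.755 to 0.899), and MRPL32, which the m-AAA protease processes before assembly, 0.957 (0.912 to 1).

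In the small subunit the lowest ratios for miR-182-5p were those of MRPS7, MRPS28, MRPS2 and MRPS35. MRPS7, which encodes a protein of the subunit head (chr17:75261674-75266376, plus strand), had 2343 counts with miR-182-5p, 2989 with miR-183-5p and 3515 with NC. The FPKM was 9.62, 11.2 and 13.6. Its ratio was 0.697 (0.661 to 0.735) for miR-182-5p and 0.814 (0.775 to 0.855) for miR-183-5p, so that the miR-183-5p library lay between the others.

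MRPS28 had an FPKM of 5.23, 5.88 and 7.36, and a ratio of 0.701 (0.636 to 0.772) for miR-182-5p. Of its exon bases, 35.8% are shared with other genes on the same strand. MRPS2, of a family shared with bacteria, had 24.9, 30.4 and 34.5 and a ratio of 0.711 (0.684 to 0.738). MRPS35, a mitochondria-specific protein, had 45.4, 53.3 and 62.6 and a ratio of 0.715 (0.693 to 0.738). All 3 kept the order of MRPS7. MRPS12, whose protein is part of the decoding centre, had a ratio of 0.806 (0.754 to 0.861).

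MRPS25 went the other way. This mitochondria-specific small subunit gene (chr3:15042460-15065317, minus strand) had 4496 counts with miR-182-5p, 5134 with miR-183-5p and 4155 with NC, an FPKM of 11.4, 12 and 9.97. The ratio to NC was 1.13 (1.08 to 1.18) for miR-182-5p and 1.18 (1.13 to 1.23) for miR-183-5p. It was the only member whose counting interval lay above 1 in both comparisons, which share the NC library. The gene overlaps NR2C2 on the opposite strand, whose ratio was 1.37 (1.33 to 1.41) for miR-182-5p and 1.15 (1.12 to 1.19) for miR-183-5p. Whether reads of NR2C2 were counted for MRPS25 was not tested. MRPS14, a conserved protein and the other small subunit gene above NC in the miR-182-5p library, had 1367, 1343 and 1342 counts and a ratio of 1.06 (0.987 to 1.15).

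**Figure D2:**
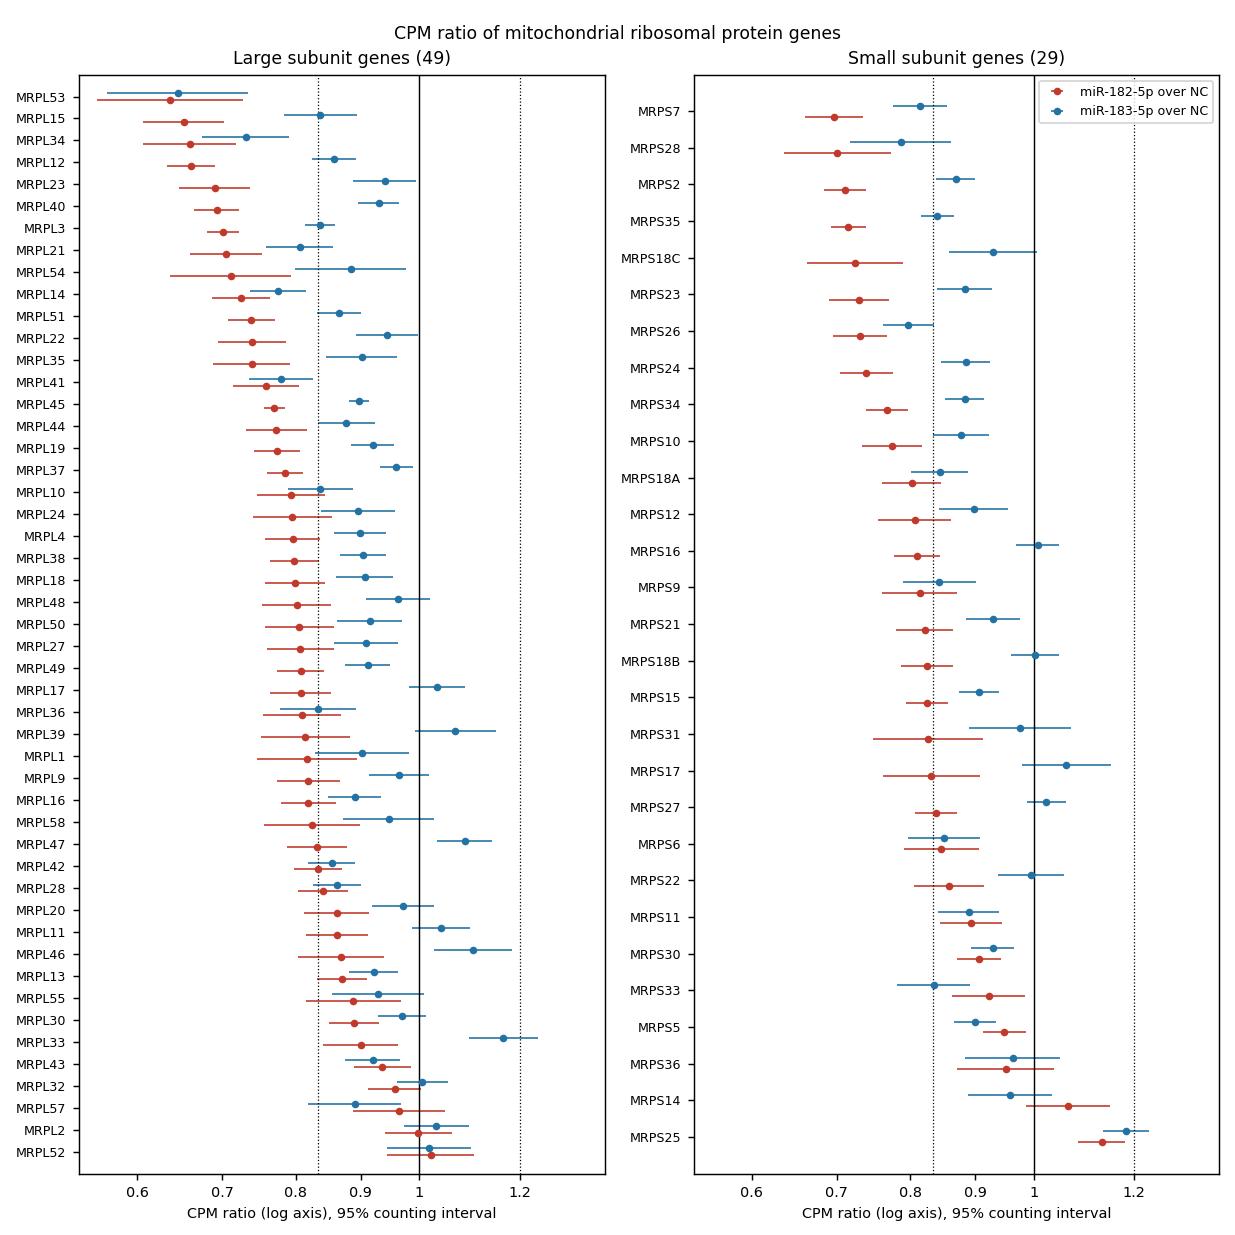
CPM ratio to the NC library (x axis, log scale) of the 49 large subunit genes (left) and the 29 small subunit genes (right), for miR-182-5p in red and miR-183-5p in blue, sorted by the miR-182-5p ratio. Bars are 95% counting intervals, the solid line marks a ratio of 1 and the dotted lines 1.2-fold; 55 of 78 miR-182-5p points and 9 of 78 miR-183-5p points lie at or beyond the lower dotted line.

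In the miR-183-5p library the members were also mostly below NC, by less. Their share of counts was 0.387%, and the ratio of the summed CPM to NC was 0.910 for the large and 0.913 for the small subunit. The median log2 CPM ratio was −0.14 for the large and −0.16 for the small subunit genes, beside −0.04 for all protein-coding genes. At least 1.2-fold lower were 6 of 49 large subunit genes (12.2%) and 3 of 29 small subunit genes (10.3%), near the background of 9.03%. None was at least 1.2-fold higher, against 5.37% of protein-coding genes. The CPM was below NC for 40 large and 24 small subunit genes, where 60.7% of protein-coding genes were. The counting interval lay below 1 for 34 large and 19 small subunit genes (background 41.4%) and above 1 for MRPL33, MRPL46, MRPL47 and MRPS25 (background 22.5%).

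The 6 large subunit genes past 1.2-fold were MRPL53, MRPL34, MRPL14, MRPL41, MRPL21 and MRPL36. MRPL14, of the conserved core, had an FPKM of 33.8 with miR-182-5p, 36.2 with miR-183-5p and 46.0 with NC, with a miR-183-5p ratio of 0.775 (0.737 to 0.815). MRPL41, a mitochondria-specific protein, had 44.7, 46.0 and 58.2 and a ratio of 0.779 (0.735 to 0.825). In both genes the microRNA libraries were close to each other and below NC. The 3 small subunit genes were MRPS28 at 0.786 (0.717 to 0.861), MRPS26 at 0.797 (0.760 to 0.835) and MRPS7. Only MRPL53 was past 1.5-fold lower, where 0.869% of protein-coding genes were.

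Some large subunit genes lay on opposite sides of NC with the 2 microRNAs. MRPL33, of a family shared with bacteria, had 1563 counts with miR-182-5p, 2211 with miR-183-5p and 1816 with NC. Its ratio was 0.9 (0.840 to 0.963) for miR-182-5p and 1.16 (1.09 to 1.24) for miR-183-5p. MRPL46, a mitochondria-specific gene, had 1189, 1649 and 1431 counts, with ratios of 0.869 (0.804 to 0.939) and 1.1 (1.03 to 1.18). MRPL47 had 2405, 3433 and 3025 counts, with ratios of 0.831 (0.788 to 0.877) and 1.09 (1.03 to 1.14). In these 3 genes the NC value lay between the others and beyond counting error from each. This order of the libraries occurred in 9.21% of all protein-coding genes. How many of those lay beyond counting error on both sides was not computed. Exon bases shared with another gene on the same strand were 21.1% in MRPL33 and 11.3% in MRPL46.

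Some members differed from NC with miR-182-5p and stood within counting error of it with miR-183-5p. With miR-183-5p the large subunit gene MRPL39 was at 1.07 (0.992 to 1.15), and in the small subunit MRPS17 was at 1.06 (0.978 to 1.15), MRPS27 at 1.02 (0.988 to 1.06), MRPS16 at 1.01 (0.969 to 1.05) and MRPS22 at 0.995 (0.938 to 1.06). All these intervals include 1. With miR-182-5p each of these 5 genes was below NC, from 0.810 (0.776 to 0.844) for MRPS16 to 0.857 (0.805 to 0.914) for MRPS22. Of the exon bases of MRPS17, 27% are shared with other genes on the same strand. The large subunit genes MRPL43 and MRPL57 had miR-182-5p ratios of 0.935 (0.889 to 0.985) and 0.964 (0.886 to 1.05) and miR-183-5p ratios of 0.919 (0.874 to 0.967) and 0.890 (0.818 to 0.968).

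Set directly against the miR-183-5p library, the miR-182-5p library had a median log2 CPM ratio of −0.18 for the large and −0.18 for the small subunit genes, and 0.00 for all protein-coding genes. At least 1.2-fold lower were 15 of 49 large and 7 of 29 small subunit genes, where 7.74% of protein-coding genes were; none was at least 1.2-fold higher, against 11.2%, and none passed 1.5-fold lower, against 0.595%. The ratio was below 1 for 46 large and 25 small subunit genes, where 49.8% of protein-coding genes were. The largest difference was that of MRPL23, with a ratio of 0.735 (0.689 to 0.784), followed by MRPL40 at 0.746 (0.716 to 0.777). MRPL40 had 3813, 5586 and 5752 counts, low with miR-182-5p and nearer to NC with miR-183-5p. The small subunit genes with the highest ratios were MRPS14 at 1.11 (1.03 to 1.2), MRPS33 at 1.1 (1.03 to 1.18) and MRPS5 at 1.06 (1.02 to 1.1), and in the large subunit MRPL57 was highest at 1.08 (0.995 to 1.18).

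Ordering the libraries by CPM gave miR-182-5p lowest, miR-183-5p between and NC highest for 38 of 49 large and 20 of 29 small subunit genes, where 34.1% of protein-coding genes had that order. The next most frequent order was miR-182-5p lowest and miR-183-5p highest, in 8 large and 4 small subunit genes, against 9.21% of protein-coding genes. The remaining 8 members had other orders.

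Members with low, bacterial numbers and those with higher numbers gave like medians for miR-182-5p. Large subunit genes numbered up to 36, the bacterial numbers, had a median log2 ratio of −0.32 over 28 genes, and the 21 with higher numbers had −0.31. In the small subunit the 16 genes numbered up to 21 had −0.29 and the 13 others −0.28. This split was made by number alone, not by whether a protein has a bacterial counterpart, and after the values were seen.

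The paralogs MRPS18A, MRPS18B and MRPS18C descend from 1 bacterial family, and the MRPS18A protein sits in the large subunit. The FPKM was 25.2, 26.6 and 31.1 for MRPS18A, 24.6, 29.9 and 29.4 for MRPS18B, and 2.47, 3.18 and 3.37 for MRPS18C. Their miR-182-5p ratios were 0.802 (0.760 to 0.846), 0.824 (0.786 to 0.863) and 0.724 (0.664 to 0.790). Their miR-183-5p ratios were 0.844 (0.801 to 0.888), 1 (0.960 to 1.05) and 0.929 (0.858 to 1.01). All 3 were below NC with miR-182-5p, whereas with miR-183-5p the interval of MRPS18A alone excluded 1. Exon bases shared with genes on the opposite strand were 47.0% in MRPS18A and 40.2% in MRPS18C, and 0 in MRPS18B. ABRAXAS1, which overlaps MRPS18C there, had a miR-182-5p ratio of 0.737 (0.666 to 0.816). Whether reads of such genes were counted for the paralogs was not tested.

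MRPS30, whose protein also sits in the large subunit, had ratios of 0.905 (0.870 to 0.942) and 0.928 (0.893 to 0.965). MRPS36, whose product is known as a component of the oxoglutarate dehydrogenase complex and not as a ribosomal protein in structures, had 0.95 (0.870 to 1.04) and 0.963 (0.884 to 1.05), an interval that includes 1 in both comparisons. Moving MRPS18A and MRPS30 to the large subunit gave 37 large and 18 small subunit genes at least 1.2-fold lower with miR-182-5p. Of all protein-coding genes, 20.9% were.

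Differences from NC varied with expression level over all genes. When protein-coding genes were split by mean FPKM into 10 bands of equal size, the median log2 ratio of miR-182-5p to NC was 0.10 in the lowest band and −0.23 in the highest. Protein-coding genes with a mean FPKM of 10 to 100, the range that holds most members, had a median of −0.15, and 30.6% of them were at least 1.2-fold lower. Within their own band, 72 of 78 members were below the median of all genes for miR-182-5p and 57 of 78 for miR-183-5p. Members' medians were below that of their band by 0.12 to 0.29 in log2 units for miR-182-5p in each of the 8 bands that held members. The smallest of these differences came from a band of 1 member and the largest from a band of 3. For miR-183-5p the differences ran from −0.24, in that band of 1 member, to 0.01, in a band of 17. As a description across 78 genes that share libraries, Spearman's rho between the log2 ratio for miR-182-5p and mean FPKM was −0.30, equal to that over all protein-coding genes (−0.30). Against the implied gene length it was 0.34 for members and 0.32 for all. What part level or length has in the members' difference beyond these values was not tested.

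**Figure D3:**
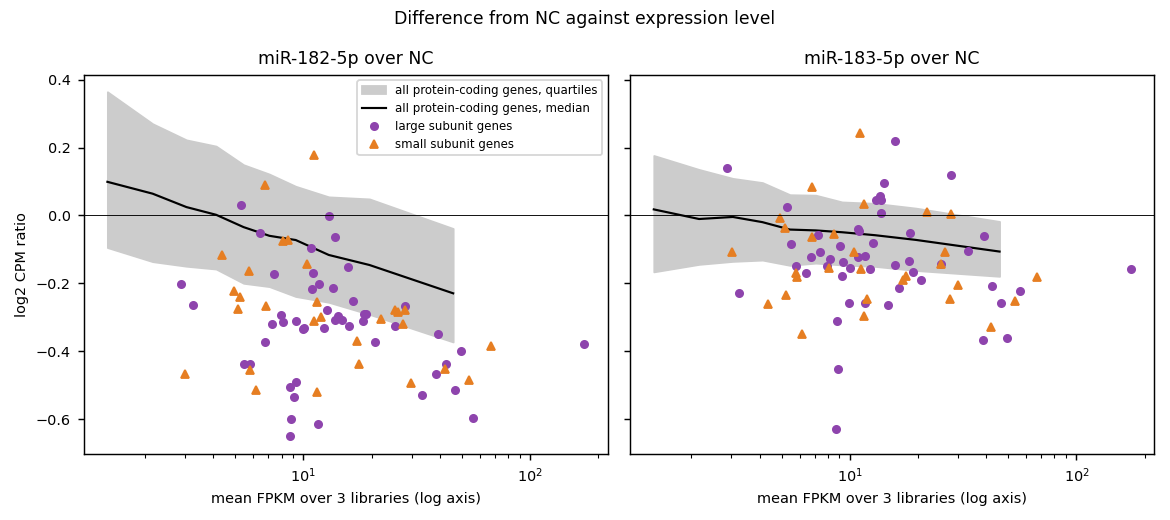
Log2 CPM ratio to NC (y axis) against mean FPKM over 3 libraries (x axis, log scale) for miR-182-5p (left) and miR-183-5p (right), with large subunit genes as circles and small subunit genes as triangles. The black line and grey band are the median and quartiles of all protein-coding genes in 10 bands of level; 72 of 78 members lie below the median of their band on the left and 57 on the right.

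The other genes of the pathway came from lists of known function. Among 5 mitochondrial ribosomal proteins with other names, 2 were at least 1.2-fold lower with miR-182-5p and none higher, with a median log2 ratio of −0.17. Of all protein-coding genes, 20.9% were lower and 15.8% higher. GADD45GIP1, a large subunit protein at the tunnel exit, had 1329, 1743 and 2234 counts. Its ratios were 0.622 (0.581 to 0.666) and 0.747 (0.701 to 0.795), below NC with both. AURKAIP1, a small subunit protein, had a miR-182-5p ratio of 0.691 (0.656 to 0.729), CHCHD1 0.889 (0.830 to 0.951), DAP3, a GTP-binding protein, 0.912 (0.883 to 0.941) and PTCD3, a pentatricopeptide protein, 0.982 (0.951 to 1.01). With miR-183-5p, GADD45GIP1 alone of the 5 was past 1.2-fold, where 9.03% of protein-coding genes were lower and 5.37% higher.

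Of 26 factors for assembly and rRNA modification, 9 were at least 1.2-fold lower and 1 higher with miR-182-5p (median log2 ratio −0.17), where 20.9% of protein-coding genes were lower and 15.8% higher. With miR-183-5p 5 were lower and none higher (−0.11), where 9.03% of protein-coding genes were lower and 5.37% higher. TFB1M, which methylates the small subunit rRNA, had 492, 632 and 823 counts and the lowest miR-182-5p ratio, 0.625 (0.558 to 0.7). METTL17, an assembly factor of the small subunit, had the highest at 1.21 (1.16 to 1.26). With miR-183-5p the lowest was NSUN4, an rRNA methyltransferase, at 0.668 (0.624 to 0.714), and the highest FASTKD2, an RNA-binding protein needed for the large rRNA, at 1.13 (1.08 to 1.18). NSUN4 had 2005, 1464 and 2098 counts, low only in the miR-183-5p library.

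Of 14 translation factors, 3 were at least 1.2-fold lower and 1 higher for miR-182-5p (median −0.14), and 1 lower and 1 higher for miR-183-5p (−0.01), shares near those of all protein-coding genes for the lower calls. The lowest were TACO1, an activator of cytochrome oxidase translation, at 0.718 (0.663 to 0.777) with miR-182-5p and TSFM, an elongation factor, at 0.777 (0.741 to 0.814) with miR-183-5p. The release factor gene MTRF1 had 692, 712 and 511 counts and was highest in both comparisons, at 1.42 (1.26 to 1.59) and 1.33 (1.19 to 1.5).

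Among 7 genes of mitochondrial transcription and RNA stability, 2 were at least 1.2-fold lower with miR-182-5p and 1 with miR-183-5p, with medians of −0.09 and −0.03. In so few genes these counts, and those of the nuclear regulators that follow, are near the 20.9% and 9.03% of protein-coding genes. SLIRP, which stabilises mitochondrial mRNAs, was lowest at 0.658 (0.610 to 0.709) and 0.808 (0.754 to 0.866), and the elongation factor TEFM highest at 1.04 (0.952 to 1.14) and 1.1 (1.01 to 1.21). Of the nuclear regulators, 7 of 9 were measured; PPARGC1A and PPARGC1B had a mean FPKM below 1. With miR-182-5p, 2 of the 7 were at least 1.2-fold lower, GABPB1 at 0.827 (0.767 to 0.892) and MYC at 0.827 (0.808 to 0.847), and GABPA was highest at 1.02 (0.95 to 1.09). None passed 1.2-fold with miR-183-5p, where MYC was lowest at 0.839 (0.820 to 0.859).

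The mitochondrial rRNAs were higher than NC in both microRNA libraries. MT-RNR1, the small rRNA, had ratios of 1.36 (1.35 to 1.37) and 1.36 (1.35 to 1.37), and MT-RNR2, the large rRNA, 1.38 (1.38 to 1.39) and 1.33 (1.33 to 1.33). Of the 78 members, 75 were below NC with miR-182-5p and 64 with miR-183-5p. MRPS25 and MRPL52 were above NC with both, as the rRNAs were, though both intervals of MRPL52 include 1. How the libraries selected RNA is not given in the sources used here, and an rRNA value depends on it.

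Cytosolic ribosomal protein genes had a median log2 ratio of −0.37 with miR-182-5p and −0.16 with miR-183-5p over 81 measured genes. At least 1.2-fold lower with miR-182-5p were 68 of them (84.0%), against 20.9% of protein-coding genes. With miR-183-5p 7 were (8.64%), near the background of 9.03%. No gene of that group was at least 1.2-fold higher, against 15.8% and 5.37% of protein-coding genes. Their quartiles overlapped those of the mitochondrial genes in both comparisons, and the difference between the groups was not tested.

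**Figure D4:**
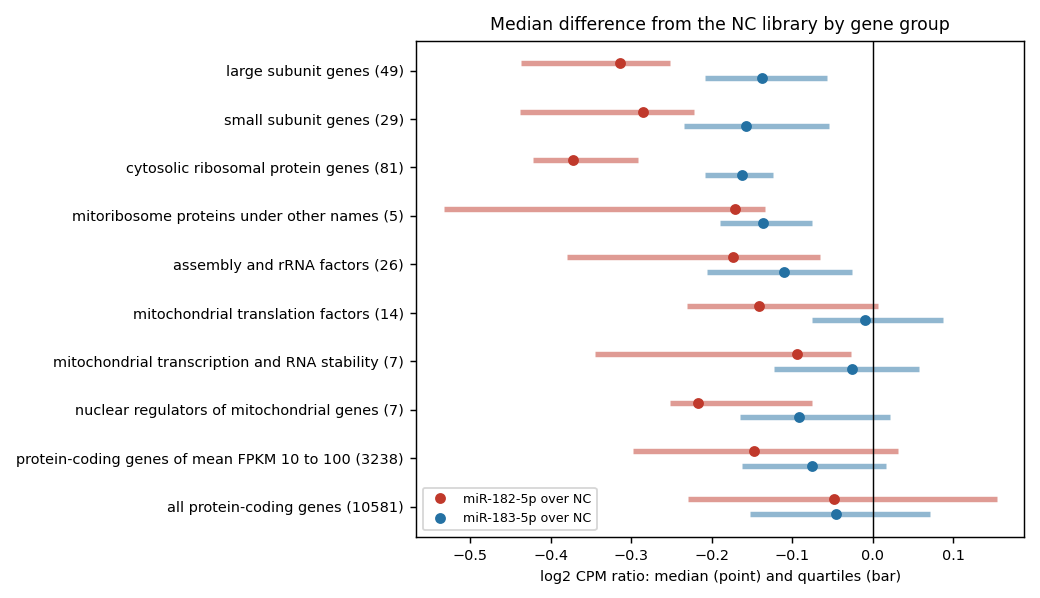
Median (point) and quartiles (bar) of the log2 CPM ratio to NC for miR-182-5p (red) and miR-183-5p (blue) in each gene group, with the number of genes in parentheses. Large and small subunit genes (−0.31 and −0.29 for miR-182-5p) lie near the cytosolic ribosomal protein genes (−0.37) and below the medians of all protein-coding genes (−0.05).

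Sites for the overexpressed microRNAs were sought in each gene’s longest 3′ UTR (GENCODE 29, GRCh38) as the 7 bases complementary to the seed. TTGCCAA, the miR-182-5p site, occurred in 6 of 78 members (7.69%) and in 15.2% of 10534 genes searched. GTGCCAT, the miR-183-5p site, occurred in 3 of 78 members (3.85%) and in 12.2% of the genes. The 3′ UTRs of members were shorter, 475 bases at the median against 1324. Short windows around a site in members with the lowest and the highest ratios among those with a site are printed, with the site in capitals.
MRPL34, miR-182-5p site: atgggagcTTGCCAAgtcccttt
MRPS23, miR-182-5p site: taacaggaTTGCCAAgaaaggag
MRPS33, miR-182-5p site: ataagaggTTGCCAAaaggaaaa
MRPS25, miR-182-5p site: gaataagcTTGCCAAtttaaggc
MRPL42, miR-183-5p site: gatataatGTGCCATcattttgg
MRPL2, miR-183-5p site: cacaggaaGTGCCATgacatttt
These windows lie on the gene's strand, with the sites at chr19:17306528-17306534 (MRPL34, plus), chr17:57839070-57839076 (MRPS23, minus), chr7:141005319-141005325 (MRPS33, minus), chr3:15049613-15049619 (MRPS25, minus), chr12:93505285-93505291 (MRPL42, plus) and chr6:43057815-43057821 (MRPL2, minus).

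The members with a site did not stand together. With a miR-182-5p site, the miR-182-5p ratio was 0.660 for MRPL34, 0.729 for MRPS23, 0.739 for MRPL35, 0.833 for MRPL42, 0.922 for MRPS33 and 1.13 for MRPS25. Their median log2 ratio was −0.35, against −0.31 for members without a site. Over all genes searched it was −0.03 with a site and −0.05 without. With a miR-183-5p site, the miR-183-5p ratio was 0.854 for MRPL42, 0.944 for MRPL22 and 1.03 for MRPL2. Their median log2 ratio was −0.08, against −0.15 for members without. Over all genes searched it was −0.04 with a site and −0.05 without. The MRPL2 site, at chr6:43057815-43057821, lies inside the gene, whose end on the minus strand is at chr6:43054029. Which transcripts of a gene were expressed, and so whether they hold the site, was not tested. A match is only a run of letters, and pairing was not measured.

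Promoters were taken from RefSeq (GRCh38.p14) for 69 of 78 members, as 250 bases before to 50 after the start, and searched on both strands. AAGATGGC, a form of the YY1 motif that in short-leader genes also spans the start codon, was present in 20 of 69 members (29%), in 5.98% of 8635 measured protein-coding genes and in 3.03% of all 27305 genes of the table. It lay on the gene's strand after the start in 15 members (21.7%), against 3.56% of measured genes. CCGGAAGT, the GABP motif, was present in 15.9% of members and 9.98% of measured genes, and the NRF1 motif, a palindrome of 10 bases, in 1.45% and 2.48%. The 3 promoters printed show the YY1 letters just after the start, and in MRPL51 also the GABP letters on the other strand, with matches in capitals.
MRPL45: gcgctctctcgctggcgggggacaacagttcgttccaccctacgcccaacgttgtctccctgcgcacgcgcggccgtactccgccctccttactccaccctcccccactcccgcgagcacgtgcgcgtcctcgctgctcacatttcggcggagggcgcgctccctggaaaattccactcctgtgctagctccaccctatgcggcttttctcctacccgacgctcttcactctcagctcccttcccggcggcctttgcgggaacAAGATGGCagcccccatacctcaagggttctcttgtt
MRPS7: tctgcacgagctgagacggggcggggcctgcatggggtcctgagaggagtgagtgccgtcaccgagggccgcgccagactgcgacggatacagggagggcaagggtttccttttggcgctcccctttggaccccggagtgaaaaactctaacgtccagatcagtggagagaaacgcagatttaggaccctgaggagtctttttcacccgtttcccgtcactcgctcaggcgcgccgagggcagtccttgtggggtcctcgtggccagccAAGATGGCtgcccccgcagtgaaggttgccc
MRPL51: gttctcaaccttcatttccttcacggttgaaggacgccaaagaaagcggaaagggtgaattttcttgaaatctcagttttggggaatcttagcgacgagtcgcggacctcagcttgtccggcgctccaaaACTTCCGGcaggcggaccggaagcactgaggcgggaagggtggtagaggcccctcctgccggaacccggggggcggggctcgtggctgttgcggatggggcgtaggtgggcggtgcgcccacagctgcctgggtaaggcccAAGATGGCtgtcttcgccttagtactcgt
They lie at chr17:38296918-38297217 (plus), chr17:75261629-75261928 (plus) and chr12:6493213-6493512 (minus). In these the YY1 letters start 13, 19 and 21 bases after the start of transcription. MRPL51, a mitochondria-specific large subunit gene, had 3680, 4716 and 5214 counts and a miR-182-5p ratio of 0.738 (0.707 to 0.770). The median log2 ratio for miR-182-5p was −0.31 for members with the YY1 letters and −0.30 for those without. A match is a description of the sequence, and binding was not measured.

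Some members start close to a neighbour transcribed the other way. A measured protein-coding gene started within 1000 bases on the opposite strand for 24 of 78 members (30.8%), against 15.3% of all measured protein-coding genes, among them MRPS11 and MRPL46, which face each other across 64 bases. For the 22 members whose neighbour is not itself a member, the median log2 ratio for miR-182-5p was −0.31 for the members and −0.07 for the neighbours. At least 1.2-fold lower were 16 of these 22 members and 7 of their 22 neighbours, where 20.9% of all protein-coding genes were. At least 1.2-fold higher were 2 neighbours, against 15.8% of protein-coding genes. The member was the lower of the pair in 15 of 22 pairs. For example, MRPS34 had a ratio of 0.767 and its neighbour EME2 1.60, whereas MRPL36 had 0.809 and NDUFS6, a respiratory complex I subunit, 0.709. MRPL49 and FAU, which encodes a cytosolic ribosomal protein, had 0.807 and 0.806.

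Overlap with other genes touches some of the values above, since the treatment of strand and shared bases in counting is not given in the sources used here. By GENCODE 29 exons, 37 members shared no exon base with another gene, 16 shared bases on the same strand and 25 on the opposite strand only. The same-strand shares of MRPL12 and MRPL53 given above were the largest. Among members with no shared exon base, 22 of 25 large and 9 of 12 small subunit genes were at least 1.2-fold lower with miR-182-5p. Of all protein-coding genes, 20.9% were.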

How the data were processed

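RNA sequencing of 3 libraries, 1 per group, gave 1 table of gene counts and FPKM. The counts are whole numbers made by the authors from their reads, and the FPKM were deposited beside them, per the file headers. The submitters' processing notes name cutadapt 1.9 and FastQC and the mouse build GRCm38, although all identifiers are human Ensembl ones; 97.3% are in GENCODE 29 (GRCh38), and both ends of 70 of 78 members lay within 1000 bp of it. Aligner, counter, annotation and strand setting: not given in the sources used here.

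CPM is a count over the library total. Ratios carry exact 95% intervals (Clopper-Pearson, conditional on the summed counts), which cover counting error only. Genes with a mean FPKM of at least 1 were measured, and a gene was called at 1.2-fold, a rule of size in place of a test. Named members are the 3 highest and 3 lowest of each subunit in each comparison and by FPKM, those past 1.5-fold, those with a seed site, the MRPS18 paralogs and MRPS30; others serve as examples of a role and were picked after their values were seen. Members and lists were chosen with earlier results of these data known. Python 3.11.15, edgeR 4.0.16 and DESeq2 1.42.0 (scaling factors only, an alternative) were used, and the script was tested on simulated data. Columns outside the series: 0.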

Additional observations from a re-analysis of the deposited data

Results flagged for a closer look

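MRPL33, MRPL46 and MRPL47 lay below NC with miR-182-5p and above it with miR-183-5p, with counting intervals that exclude 1 on both sides. The ratios were 0.9 and 1.16 for MRPL33, 0.869 and 1.1 for MRPL46, and 0.831 and 1.09 for MRPL47. Both ratios share the NC library, and the difference was not tested across replicates. By GENCODE 29, 21.1% of the exon bases of MRPL33 and 11.3% of those of MRPL46 are shared with another gene on the same strand.

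Entries of the table that carry an MRPL or MRPS name but are pseudogenes, antisense or divergent transcripts were not among the members. There were 23, of which 17 were pseudogenes, and 13 of these had under 30 counts in every library. With counting intervals wholly above 1 there were 7 for miR-182-5p and 5 for miR-183-5p, and wholly below 1 there were 1 and 3. Of the 12675 measured genes of any type, 35.1% and 24.5% had intervals above 1, and 39.6% and 37.4% below. Intervals above 1 were thus no more frequent among the 23 entries than among measured genes. Many of the entries have few counts, which widens their intervals. Above NC with miR-182-5p were MRPL20-DT at 1.41, MRPL23-AS1 at 2.19, MRPS30-DT at 1.42, MRPS31P4 at 1.41 and MRPS31P5 at 1.66. So were MRPS17P1 (2.79-fold) and MRPS36P1 (2.09-fold), from 8 and 6 counts against 0 in NC. Above NC with miR-183-5p were MRPS31P5 at 1.34 and MRPS18AP1 at 3.99, the last from 25 counts against 6. So were MRPL40P1 (7.02-fold), MRPS17P1 (2.23-fold) and MRPL48P1 (1.91-fold), from 22, 7 and 6 counts against 0 in NC. With 0 counts in NC a ratio has no finite value, so those fold values take NC as 3 counts. The lower limits of their 95% counting intervals were smaller. With miR-182-5p they were 1.78 for MRPS17P1 and 1.23 for MRPS36P1. With miR-183-5p they were 5.24 for MRPL40P1, 1.38 for MRPS17P1 and 1.13 for MRPL48P1. Below NC were MRPL35P3 with miR-182-5p, from 1 count against 9, and with miR-183-5p MRPL20-AS1 at 0.870 (0.801 to 0.944), MRPL35P2 from 0 counts against 12 and MRPS9-AS2 from 0 against 8. MRPS31P4 and MRPS31P5 resemble MRPS31, and how the authors' counting divided shared reads is not given in the sources used here. MRPS31 had a ratio of 0.826 in the miR-182-5p library.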

How the results depend on the processing

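Each group has 1 library, so no setting tests a difference between conditions. No paired analysis was possible because the groups have 1 library each and no result comes from a test. Median log2 ratios of both subunits stayed below 0 in all 3 comparisons under every setting run. For all members they ranged over the scalings from −0.25 (nuclear-encoded total) to −0.37 (DESeq2 size factors) for miR-182-5p over NC. The median of all protein-coding genes moved to −0.11 with TMM or DESeq2 factors, where 28.2% and 28.5% of genes were at least 1.2-fold lower and 12.2% and 12.1% higher; on nuclear counts 15.2% were lower and 20.2% higher.

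Counts at least 1.2-fold lower with miR-182-5p over NC fell on nuclear counts from 36 to 24 large and from 19 to 11 small subunit genes, and with FPKM plus 1 to 27 and 13; TMM gave 39 and 22, and DESeq2 factors 41 and 22. With FPKM plus 1, 14.7% of protein-coding genes were at least 1.2-fold lower. With miR-183-5p over NC, nuclear counts put 1 large and 1 small subunit gene at least 1.2-fold higher, against 7.86% of protein-coding genes. For miR-182-5p over miR-183-5p, 13 small subunit genes were lower with TMM and 13 with DESeq2 factors. Of all protein-coding genes, 15.4% and 15.2% were lower under these settings. At 1.5-fold, lower genes numbered 4 large and 0 small for miR-182-5p, 1 and 0 for miR-183-5p, and 0 and 0 between the microRNAs; at 2-fold all were 0. Of all protein-coding genes, 1.79%, 0.869% and 0.595% were lower at 1.5-fold, and 0.284%, 0.265% and 0.217% at 2-fold. Settings added after seeing the data were members without shared exon bases and a protein-coding median set to 1. Without shared exon bases, the lower genes were 22 of 25 large and 9 of 12 small (miR-182-5p), 1 of 12 small (miR-183-5p), and 8 of 25 large and 2 of 12 small (between the microRNAs); fewer genes enter these counts. Of all protein-coding genes, 20.9%, 9.03% and 7.74% were lower in these comparisons. With the median set to 1, 25 large and 12 small subunit genes were lower with miR-182-5p, where 16% of protein-coding genes were. With miR-183-5p, 1 large and 1 small subunit gene were then higher, against 7.89% of protein-coding genes. Of 600 recomputed values of the 40 named members, 545 moved by less than their counting interval and 14 changed sign, all near a ratio of 1. The cause of these shifts was not tested beyond the scaling itself.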

Other observations

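MRPL45, the member with the highest level per length, lies on chromosome 17 near other genes of high and low level. Within 500000 bases of it, PSMB3, a proteasome subunit gene, had an FPKM of 150 with miR-182-5p, 166 with miR-183-5p and 191 with NC. ARHGAP23 had an FPKM of 55.3, 57.0 and 57.1 in the same order, and MLLT6 56.6, 53.1 and 50.9. The CPM ratio for miR-182-5p over NC was 0.771 (0.754 to 0.789) for PSMB3, close to the 0.769 of MRPL45, but 0.955 (0.941 to 0.970) for ARHGAP23 and 1.1 (1.08 to 1.11) for MLLT6. These neighbours thus lay on both sides of NC. The genes named were chosen after their values were seen.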
